A study of Homo sapiens with 8 samples.

Results

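The ER J-domain co-chaperones are proteins of the endoplasmic reticulum (ER) that start the working cycle of the chaperone BiP. The genes were found by symbol, through the RefSeq names of the gene IDs in the count table: DNAJB9, DNAJB11, DNAJC1, DNAJC3, DNAJC10, DNAJC16 and SEC63. These are 7 of 18555 genes in the table, and all 7 passed the filter on low counts. The series asks how XBP1s, the active form of the stress factor XBP1, works with LEF1 in liver cancer cells. Its RNA-seq arm has 3 siXBP1 libraries, from cells given an XBP1-specific siRNA, and 3 siNC libraries, from cells given the Allstar control siRNA. The labels give both groups as HepG2, a line from a human liver tumour, and both received, after the siRNA, 30 nM thapsigargin for 3 hours. Thapsigargin drains ER calcium and provokes the unfolded protein response, and each value below describes cells labelled as given it. Cells without thapsigargin were not analysed here, so the response itself was not measured. Knockdown was partial, with XBP1 at 288 ± 11.4 CPM (counts scaled to equal library totals) in siXBP1 and 518 ± 29.5 CPM in siNC (SD, n = 3 each). These counts are per gene, so the level of the active form XBP1s was not measured.

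Total counts were 38209972 to 38784719 in siXBP1 libraries and 38512103 to 38890070 in siNC libraries. The levels of liver genes go against the label HepG2: of 10 hepatocyte markers 5 have a row in the table, and 0 averaged 1 CPM or more, with HNF4A highest at 0.385 CPM. Of 6 epithelial markers 3 averaged 1 CPM or more, KRT17 (3364 CPM), KRT7 (1473 CPM) and KRT14 (8.78 CPM), while CDH1 (0.38 CPM), EPCAM (0.0257 CPM) and KRT5 (0.0171 CPM) were near 0. Of 6 fibroblast markers 5 averaged 1 CPM or more, with LUM highest at 136 CPM, while COL1A2 (0.0174 CPM) was near 0. The summed level of the fibroblast markers was 346 to 353 CPM in siXBP1 and 323 to 340 CPM in siNC, that of the epithelial markers, nearly all of it KRT17 and KRT7, 4169 to 5297 CPM in siXBP1 and 4264 to 5684 CPM in siNC, and that of the hepatocyte markers 0.619 to 1.09 CPM in siXBP1 and 0.257 to 0.591 CPM in siNC. Endothelial markers summed to 14.3 to 16.7 CPM in siXBP1 and 15.7 to 18.7 CPM in siNC, and leukocyte markers to 40.5 to 43.5 CPM in siXBP1 and 37.5 to 44.1 CPM in siNC, nearly all of it CD68. The part of these levels in the results below was not tested. In bulk RNA, fewer cells of a type and less RNA per cell cannot be told apart. The libraries were spread along a first principal component with 59.3% of the variance, which put siXBP1 replicate 3 (-0.649) and siNC replicate 1 (0.641) at opposite ends and the other 4 between -0.29 and 0.242. These end libraries bear on most results below.

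BiP, encoded by HSPA5, holds unfolded proteins in a cycle driven by ATP. A J domain, which carries a histidine-proline-aspartate motif, makes BiP hydrolyse its ATP and close on a client, so each co-chaperone decides where BiP works. Luminal members deliver clients for folding or for removal. The membrane members SEC63 and DNAJC1 place BiP at the channel through which new proteins enter the ER. Several of these genes are textbook targets of XBP1s or of the related factor ATF6, which bind promoters through short elements that contain CCACG or ACGT.

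RefSeq promoter windows (GRCh38.p14, 250 bases before the gene start and 50 after it) were found for 6 of the 7 genes, DNAJC1 being the one without. Windows of 5 genes are printed to show which of these elements lie near them. These are the 5 genes with lower estimates in siXBP1, so the choice follows the results below. The DNAJC16 window, which also holds CCACG and ACGT, is described but not printed. They are written 5′ to 3′ on the gene's strand, with every CCACG (either strand) and every ACGT in capitals. The windows are chr7:108569624-108569923 (plus strand) for DNAJB9, chr13:95676889-95677188 (plus strand) for DNAJC3, chr2:182716007-182716306 (plus strand) for DNAJC10, chr6:107958159-107958458 (minus strand) for SEC63 and chr3:186570470-186570769 (plus strand) for DNAJB11.
DNAJB9: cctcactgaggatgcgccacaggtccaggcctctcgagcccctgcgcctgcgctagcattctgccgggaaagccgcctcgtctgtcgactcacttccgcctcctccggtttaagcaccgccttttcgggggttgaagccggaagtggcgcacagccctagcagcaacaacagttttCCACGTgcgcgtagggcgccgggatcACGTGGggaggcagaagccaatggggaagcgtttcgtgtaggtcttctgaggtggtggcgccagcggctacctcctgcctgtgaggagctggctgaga
DNAJC3: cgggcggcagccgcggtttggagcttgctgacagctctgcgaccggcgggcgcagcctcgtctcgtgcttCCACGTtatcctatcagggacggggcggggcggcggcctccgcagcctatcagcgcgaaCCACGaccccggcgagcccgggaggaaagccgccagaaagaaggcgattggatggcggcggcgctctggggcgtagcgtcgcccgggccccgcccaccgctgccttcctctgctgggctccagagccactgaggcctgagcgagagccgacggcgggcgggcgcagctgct
DNAJC10: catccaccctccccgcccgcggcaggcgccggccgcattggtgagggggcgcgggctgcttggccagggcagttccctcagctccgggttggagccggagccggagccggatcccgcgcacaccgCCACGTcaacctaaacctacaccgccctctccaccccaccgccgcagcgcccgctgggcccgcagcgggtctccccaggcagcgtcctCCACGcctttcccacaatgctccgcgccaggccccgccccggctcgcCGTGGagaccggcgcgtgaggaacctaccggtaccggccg
SEC63: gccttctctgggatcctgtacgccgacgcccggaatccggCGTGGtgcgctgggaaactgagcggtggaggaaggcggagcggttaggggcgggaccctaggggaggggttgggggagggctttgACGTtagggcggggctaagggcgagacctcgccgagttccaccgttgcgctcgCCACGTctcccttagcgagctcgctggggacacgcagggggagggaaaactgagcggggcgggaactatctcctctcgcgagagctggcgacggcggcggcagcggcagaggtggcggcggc
DNAJB11: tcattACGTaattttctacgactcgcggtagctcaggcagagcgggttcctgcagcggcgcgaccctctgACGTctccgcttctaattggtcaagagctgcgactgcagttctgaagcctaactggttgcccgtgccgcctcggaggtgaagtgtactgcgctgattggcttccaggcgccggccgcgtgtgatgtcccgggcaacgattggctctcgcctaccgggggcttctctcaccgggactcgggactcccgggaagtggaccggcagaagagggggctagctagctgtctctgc

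Among 19834 promoter windows of genes in the table, 45.1% hold CCACG on either strand, 37% hold ACGT and 34.4% hold CCAAT. Positions count from the first transcribed base. In DNAJB9 a CCACG begins at -74 on the gene's strand and another at -47 on the other strand, each overlapping an ACGT, and a CCAAT begins at -31. DNAJC3 has CCACG at -180, overlapping an ACGT, and at -121. DNAJC10 has a CCACG at -125 that lies inside a full UPRE (TGACGTGG, on the other strand), the element first described for ATF6 and XBP1, which 0.822% of all windows hold, and further CCACG at -37 and, on the other strand, at 11. DNAJC3 and DNAJC10 also have a CCAAT on the other strand, at -75 and -214. SEC63 has a CCACG at -72 that overlaps an ACGT, another at -210 on the other strand, a further ACGT at -125, and no CCAAT. These 4 windows therefore hold CCACGT, which is in 11.2% of all windows and not in those of DNAJB11, DNAJC16 or HSPA5. This motif was searched only after the windows had been seen, so the contrast is not a test. DNAJB11 has no CCACG in this window but 3 CCAAT on the other strand, at -165, -86 and -43. DNAJC16 has CCACG at -130, ACGT at -212 and -28, and no CCAAT. The complete ER stress element ERSE, a CCAAT followed after 9 bases by CCACG, is in 0.106% of all windows and in none of the 6 windows of the family, while the HSPA5 window holds 1 at -66. These letters describe the windows only. Binding of XBP1s was not analysed here.

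Across the family, the difference was largest for DNAJB9 and near 0 for DNAJC1 and DNAJC16. By edgeR's quasi-likelihood test over 14337 genes, 0 of the 7 genes passed an adjusted p of 0.05. The only gene that passed was XBP1, lower in siXBP1, which makes 0.00697% of the genes tested. Of the 7 estimates, 5 were lower in siXBP1, against 47.2% of all genes, and the family's median log2 fold change was -0.17, against 0.0096 for all genes. At an unadjusted p under 0.05, 2 of the 7 were lower (DNAJB9 and DNAJC3), against 1.7% of all genes. In CPM, 2 of the 7 (DNAJB9 and DNAJB11) had every siXBP1 library below every siNC library, against 3.74% of all genes. The summed level of the family was 773, 775 and 864 CPM in siXBP1 libraries 1 to 3 and 839, 1002 and 964 CPM in siNC libraries 1 to 3. The siXBP1 mean of that sum was 86% of the siNC mean, and the groups overlapped because siXBP1 library 3 lay above siNC library 1.

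**Figure D1:**
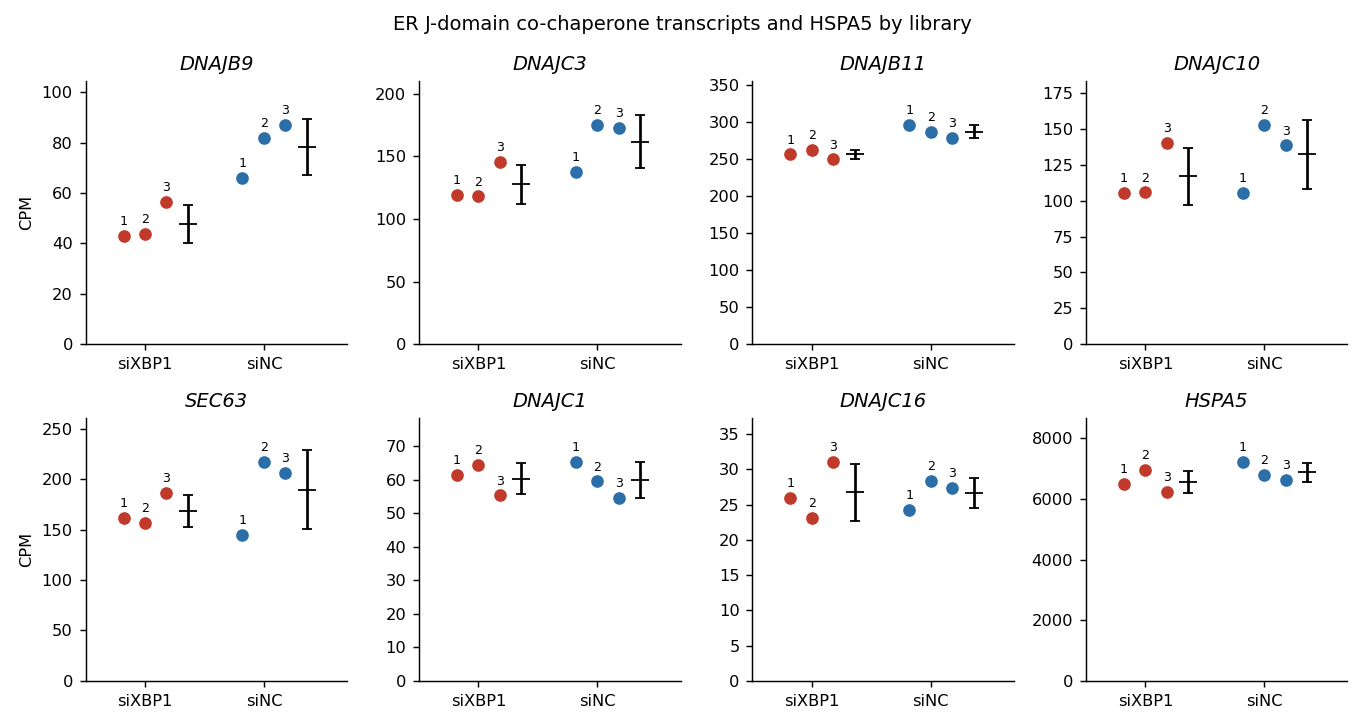
Level in CPM (vertical axes, from 0) of each co-chaperone transcript and of HSPA5 in the siXBP1 (red) and siNC (blue) libraries, with replicate numbers beside the points and the mean ± SD in black (n = 3 each). DNAJB9 and DNAJB11 are the genes whose groups do not overlap, and siNC library 1 is the lowest siNC library for DNAJB9, DNAJC3, DNAJC10, DNAJC16 and SEC63.

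DNAJB9 (ERdj4; gene ID 4189, chromosome 7, 108569874 to 108574850) is a small luminal co-chaperone that brings BiP to the stress sensor IRE1, the enzyme that splices XBP1 mRNA, and that helps remove misfolded proteins. It had 1657, 1704 and 2161 counts in siXBP1 libraries 1 to 3 and 2561, 3183 and 3353 counts in siNC libraries 1 to 3. In CPM these were 43.1, 43.9 and 56.6 in siXBP1 and 65.9, 81.9 and 87.1 in siNC. All siXBP1 libraries lay below all siNC libraries, with siXBP1 library 3 and siNC library 1 nearest to each other. On average the level in siXBP1 was 61.1% of that in siNC, 47.9 ± 7.55 CPM against 78.3 ± 11.1 CPM (SD, n = 3 each). The log2 fold change was -0.71 (SE 0.15, 95% interval -1.04 to -0.38, edgeR adjusted p = 0.818), the 13th smallest p of all genes tested. DESeq2 gave -0.71 and called DNAJB9 (adjusted p = 0.012), the only one of the 7 that it called, where 0.0666% of all genes were called lower. Leaving out any 1 library gave estimates from -0.86 to -0.63 (edgeR adjusted p from 0.202 to 1.00).

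DNAJC3 (ERdj6, also p58IPK; gene ID 5611, chromosome 13, 95677139 to 95794988) binds misfolded clients in the lumen and is known as an inhibitor of the kinases PERK and PKR. It had 119.6, 118.1 and 145.6 CPM in siXBP1 libraries and 137.6, 175.2 and 172.9 CPM in siNC libraries. The groups overlapped, because siXBP1 library 3 lay above siNC library 1. The other 4 libraries were apart, with siXBP1 libraries 1 and 2 far below siNC libraries 2 and 3. The means were 128 ± 15.4 CPM in siXBP1 and 162 ± 21.1 CPM in siNC (SD, n = 3 each), and the log2 fold change was -0.34 (SE 0.13, 95% interval -0.62 to -0.06, edgeR adjusted p = 1.00).

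DNAJB11 (ERdj3; gene ID 51726, chromosome 3, 186570720 to 186585793) is a soluble co-chaperone that binds newly made proteins and hands them to BiP. It was the steadiest of the 7, with 255.8, 262.4 and 249.1 CPM in siXBP1 libraries and 295.7, 286.3 and 277.6 CPM in siNC libraries. All siXBP1 values were below all siNC values. The coefficient of variation was 2.6% in siXBP1 and 3.16% in siNC, against 15.8% in siXBP1 and 14.1% in siNC for DNAJB9. Its difference was small, with the siXBP1 mean at 89.3% of the siNC mean and a log2 fold change of -0.16 (SE 0.08, 95% interval -0.34 to 0.02, edgeR adjusted p = 1.00).

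DNAJC10 (ERdj5; gene ID 54431, chromosome 2, 182716257 to 182794464) is a J-domain protein with thioredoxin domains that reduces disulfide bonds, so that misfolded proteins can leave the ER. It had 105.4, 105.9 and 140.1 CPM in siXBP1 libraries and 105.7, 152.9 and 138.6 CPM in siNC libraries. The groups overlapped fully: siNC library 1 was level with siXBP1 libraries 1 and 2, and siXBP1 library 3 with siNC library 3. The log2 fold change was -0.18 (SE 0.16, 95% interval -0.53 to 0.18, edgeR adjusted p = 1.00).

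SEC63 (ERdj2; gene ID 11231, chromosome 6, 107867756 to 107958208) is a membrane protein that joins the SEC61 channel with SEC62 and recruits BiP to pull proteins into the lumen. It had 161.8, 157.0 and 186.5 CPM in siXBP1 libraries and 145.1, 217.5 and 206.2 CPM in siNC libraries. Its lowest library was siNC library 1, below all siXBP1 libraries, while siNC libraries 2 and 3 were above all of them. The coefficient of variation was 9.4% in siXBP1 and 20.6% in siNC, the highest of the family in that group. The log2 fold change was -0.17 (SE 0.15, 95% interval -0.50 to 0.16, edgeR adjusted p = 1.00).

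DNAJC1 (ERdj1; gene ID 64215, chromosome 10, 21756548 to 22003730), a membrane protein that can bind ribosomes at the translocon, had 61.3, 64.3 and 55.3 CPM in siXBP1 libraries and 65.4, 59.5 and 54.7 CPM in siNC libraries. DNAJC16 (ERdj8; gene ID 23341, chromosome 1, 15526848 to 15571733), a membrane J-domain protein with a thioredoxin-like region, had 26.0, 23.1 and 31.1 CPM in siXBP1 libraries and 24.2, 28.4 and 27.3 CPM in siNC libraries. The groups overlapped for both, and the siXBP1 means were 101% and 100.4% of the siNC means. Log2 fold changes were 0.01 for DNAJC1 (95% interval -0.24 to 0.27) and 0.01 for DNAJC16 (95% interval -0.30 to 0.31), with an edgeR adjusted p of 1.00 for each. These intervals include differences as large as those of DNAJB11, SEC63 and DNAJC10, so a difference of that size is not excluded in either direction.

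The end libraries moved 5 of the 7 genes one way. On the log2(CPM + 0.5) scale, siXBP1 replicate 3 stood above the mean of the other siXBP1 libraries by 0.37 for DNAJB9, 0.29 for DNAJC3, 0.41 for DNAJC10, 0.34 for DNAJC16 and 0.23 for SEC63. At the same time siNC replicate 1 stood apart from the mean of the other siNC libraries by -0.36 for DNAJB9, -0.34 for DNAJC3, -0.46 for DNAJC10, -0.20 for DNAJC16 and -0.54 for SEC63. DNAJC1 went the other way, with -0.18 in siXBP1 replicate 3 and 0.20 in siNC replicate 1, and so did DNAJB11, with -0.06 and 0.07. XBP1 itself went with the last 2 genes, with -0.09 in siXBP1 replicate 3 and 0.14 in siNC replicate 1. Within siNC, replicate 1 had the most XBP1 mRNA and the least DNAJB9, DNAJC3, DNAJC10, DNAJC16 and SEC63 mRNA. That comparison rests on 1 library, and a link between these levels was not tested. Over the 10745 genes that averaged 5 CPM or more, the same offsets had a median of -0.017 for siXBP1 replicate 3, with 5th and 95th percentiles of -0.43 and 0.57. For siNC replicate 1 the median was 0.0045, with percentiles of -0.58 and 0.40. The offsets of all 7 genes and of XBP1 lie within these ranges.

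**Figure D2:**
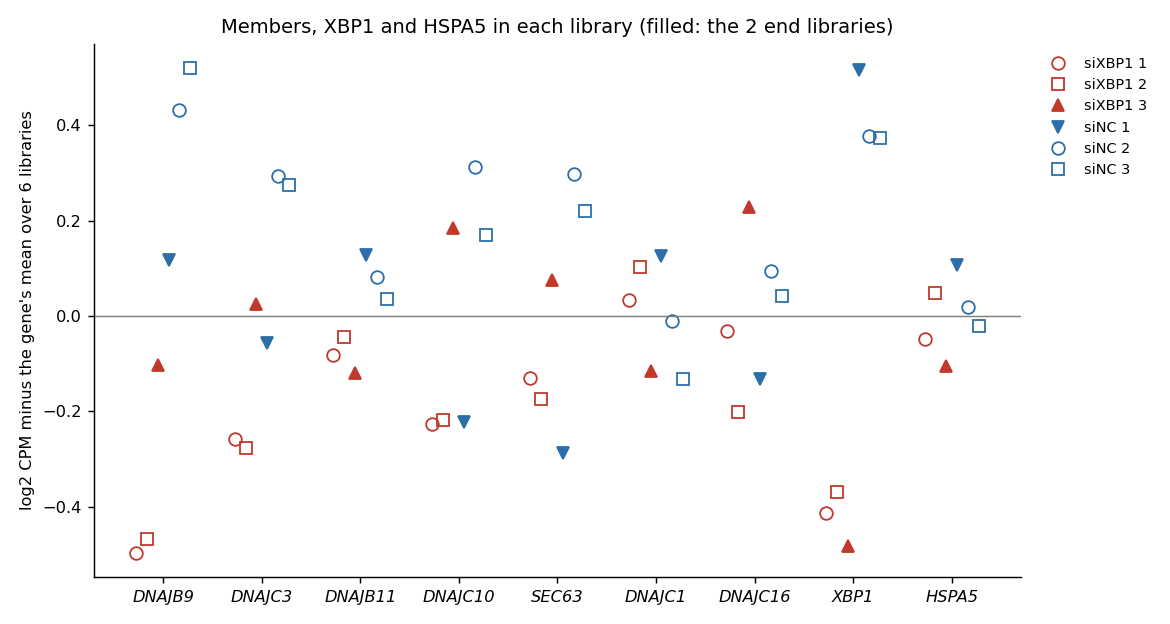
Log2 CPM of each co-chaperone gene, XBP1 and HSPA5 minus the gene's mean over the 6 libraries (vertical axis), with siXBP1 libraries in red and siNC libraries in blue. Filled triangles mark siXBP1 replicate 3 and siNC replicate 1, which are closer together than the other libraries of their groups, or cross, for DNAJB9, DNAJC3, DNAJC10, DNAJC16 and SEC63. For DNAJB11, DNAJC1, XBP1 and HSPA5 siXBP1 replicate 3 lies below siNC replicate 1.

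When each library's first-component score was added to the model as a covariate, edgeR called 3 of the 7 as lower, DNAJB9, DNAJC3 and DNAJC10, where 0.502% of all genes were called lower. The log2 fold changes in that fit were -0.79 for DNAJB9 (SE 0.07, adjusted p = 1.77e-07), -0.40 for DNAJC3 (SE 0.06, adjusted p = 0.000332) and -0.27 for DNAJC10 (SE 0.06, adjusted p = 0.0199). SEC63 had -0.23 (SE 0.07, adjusted p = 0.0855), DNAJB11 -0.15 (0.06, 0.27), DNAJC16 -0.05 (0.09, 0.88) and DNAJC1 0.05 (0.07, 0.856). Without both end libraries, 2 libraries per group, edgeR called 4 of the 7 as lower, these 3 and SEC63 (-0.41, SE 0.09, adjusted p = 0.00279), where 3.42% of all genes were called lower. In that fit DNAJB9 had -0.95, DNAJC3 -0.55 and DNAJC10 -0.46. Both fits use a component computed from the same 6 libraries, so their errors may be too small, and the libraries left out are those that lay nearest to the other group, or beyond its nearest library, for DNAJB9, DNAJC3, DNAJC10 and SEC63, which by itself widens the difference. The spread within groups, as the biological coefficient of variation, was 15.3% with all libraries, 8.04% with the covariate and 9.03% without the end libraries.

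**Figure D3:**
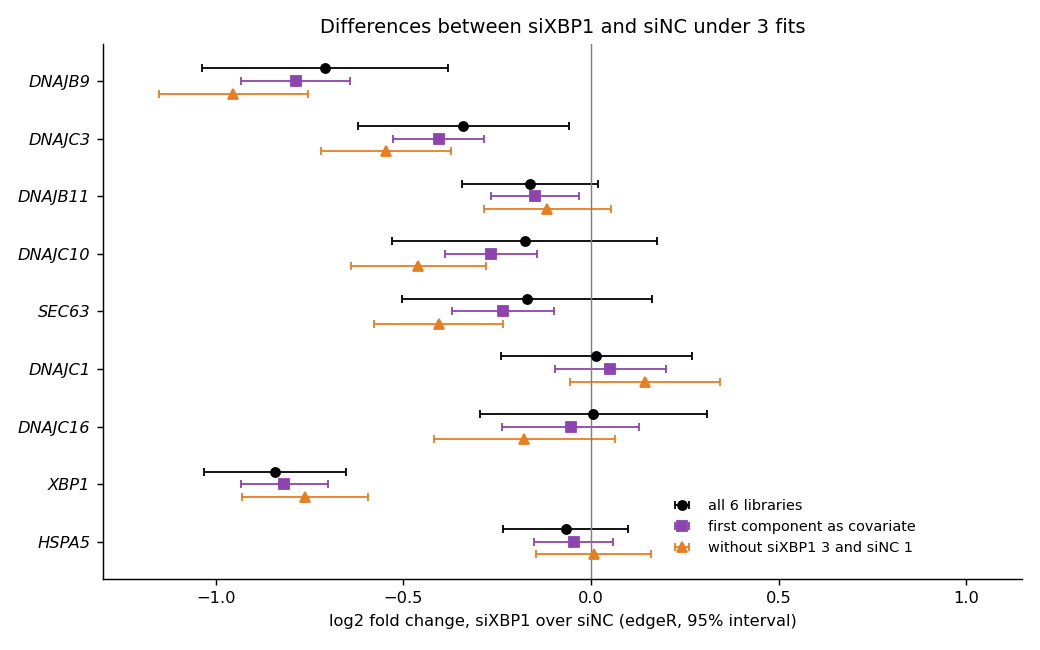
Log2 fold change of siXBP1 over siNC (horizontal axis; bars are 95% intervals) for the 7 co-chaperone genes, XBP1 and HSPA5 in 3 edgeR fits. The estimate for DNAJB9 moves between -0.71 and -0.95, that for DNAJC10 between -0.18 and -0.46, and those for DNAJC1 and DNAJC16 have intervals that include 0 in each fit.

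DNAJB9 was also set against the rest of its family within each library. Its log2(CPM + 0.5) minus the mean of the other 6 genes was -1.16, -1.12 and -0.94 in siXBP1 libraries and -0.60, -0.54 and -0.37 in siNC libraries. The groups did not overlap, and the difference of means was -0.57, with an exact two-sided permutation p of 0.1, the smallest that 3 libraries against 3 can give (0.35 adjusted over the 7 genes). DNAJC16 stood out the other way on this scale, at -2.04 ± 0.129 in siXBP1 and -2.29 ± 0.0248 in siNC (SD), without overlap and with a difference of 0.25 (exact permutation p = 0.1, 0.35 adjusted). The CPM of DNAJC16 itself was nearly the same in both groups, as given above. For the other 5 genes the groups overlapped, with differences from -0.14 for DNAJC3 to 0.27 for DNAJC1 and exact permutation p from 0.2 to 1.

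The chaperone that these proteins serve differed little, and the ratio of DNAJB9 to HSPA5 transcripts was lower in every siXBP1 library than in any siNC library. HSPA5 had 6491, 6946 and 6246 CPM in siXBP1 libraries and 7233, 6802 and 6622 CPM in siNC libraries, with overlap and a log2 fold change of -0.07 (95% interval -0.23 to 0.10, edgeR adjusted p = 1.00). DNAJB9 counts were 0.663%, 0.632% and 0.906% of HSPA5 counts in siXBP1 libraries and 0.910%, 1.204% and 1.315% in siNC libraries. The groups nearly met at siXBP1 library 3 and siNC library 1, and the mean log2 ratio was 0.64 lower in siXBP1 (difference -0.64, exact permutation p = 0.1, 0.35 adjusted over the 7 genes). DNAJB11 counts were 3.94%, 3.78% and 3.99% of HSPA5 counts in siXBP1 and 4.09%, 4.21% and 4.19% in siNC, a small difference of -0.09 without overlap (exact permutation p = 0.1, 0.35 adjusted). The log2 ratio differed by -0.27 for DNAJC3, -0.10 for DNAJC10, -0.08 for SEC63, 0.07 for DNAJC16 and 0.08 for DNAJC1, with exact permutation p from 0.2 to 1. Against HSP90B1, the ER form of HSP90, the log2 ratio of DNAJB9 differed by -0.63 (exact permutation p = 0.1, 0.7 adjusted over the 7 genes). That of DNAJB11 differed by -0.08, with overlap (exact permutation p = 0.5).

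Genes related to the co-chaperones were taken from 5 lists, and by edgeR's test 0 of them passed an adjusted p of 0.05. The lists were chosen with earlier results of these data known. Of all genes, 1.7% were lower at an unadjusted p under 0.05. The shares called lower were 0.0666% by DESeq2, 0.502% with the covariate and 3.42% without both end libraries. The share of all genes with lower estimates is given above. Of 34 textbook XBP1s targets other than the 7, 33 had lower estimates (median log2 fold change -0.13), and 12 had an unadjusted p under 0.05 as lower. Those with the smallest p were UAP1 (-0.53, SE 0.09), of the hexosamine pathway, DERL3 (-0.69, SE 0.13), of ER-associated degradation, and SYVN1 (-0.44, SE 0.11), its ubiquitin ligase, with edgeR adjusted p of 0.594, 0.594 and 1.00. DESeq2 called UAP1 and DERL3 as lower (adjusted p = 0.00072 and 0.00406). With the first component as a covariate 12 of the 34 were called lower and 0 higher.

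Of 8 genes of the BiP system, 6 had lower estimates (median -0.09) and 3 had an unadjusted p under 0.05. HYOU1, a nucleotide exchange factor of BiP, had 775 ± 33.9 CPM in siXBP1 and 985 ± 35.5 CPM in siNC (SD, n = 3 each; log2 fold change -0.35), without overlap. FICD, which attaches AMP to BiP, had 12.3 ± 0.827 CPM in siXBP1 and 18.7 ± 2.28 CPM in siNC (SD, n = 3 each; -0.61), also without overlap. SDF2L1, which forms a complex with DNAJB11, had a log2 fold change of -0.43 (SE 0.19) with overlap. SIL1, another exchange factor, had 0.03. HYOU1, FICD and SDF2L1 were called lower with the covariate (edgeR adjusted p = 0.00102, 0.00319 and 0.0264). Without both end libraries HYOU1, FICD and HSPA13, an HSP70-like protein of the ER, were called lower. HSPA13 had a log2 fold change of -0.45 in that fit (edgeR adjusted p = 0.00385), against -0.11 with all libraries, while SDF2L1 had -0.09 and was not called.

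Of 13 partners of individual members, 10 had lower estimates (median -0.13). SEC61A1, the channel subunit beside SEC63, had -0.30 (SE 0.08), and EDEM1, the lectin that works with DNAJC10, had -0.32 (SE 0.10), both without overlap and both called lower with the covariate (edgeR adjusted p = 0.00527 and 0.00179), though without both end libraries SEC61A1 was not called, and EDEM1, SYVN1, SEL1L and EIF2AK3 were. At least SYVN1, EDEM1, SEC61A1 and SEL1L of these partners are in the target list as well, as is SDF2L1 of the BiP system. The counts of these lists therefore rest partly on the same genes and are not independent. The log2 fold changes of the kinases and the sensor that DNAJC3 and DNAJB9 are known to restrain were -0.21 (SE 0.12) for EIF2AK3, which encodes PERK, 0.09 (SE 0.19) for EIF2AK2, which encodes PKR, and 0.30 (SE 0.24) for ERN1, which encodes IRE1, each with an edgeR adjusted p of 1.00. Their values depended on the end libraries: without both of these EIF2AK3 had -0.37 and was called lower (edgeR adjusted p = 0.0185), and the estimates of EIF2AK2 (-0.25) and ERN1 (-0.08) changed sign without being called. With the covariate EIF2AK2 had -0.02, ERN1 0.19 and EIF2AK3 -0.26, and none of the 3 was called.

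J-domain genes outside the 7 had medians near 0. Of 5 further ER J-domain genes, 1 had a lower estimate (median 0.02) and 0 had an unadjusted p under 0.05, with 0.23 for DNAJC18, 0.07 for DNAJB14 and -0.04 for DNAJC25, also called ERdj7. Of 30 J-domain genes of the cytosol, nucleus or mitochondria, 12 had lower and 18 higher estimates (median 0.01), again with 0 at an unadjusted p under 0.05. DNAJA3 (-0.14), DNAJB6 (-0.11) and DNAJC17 (0.15) had the smallest p of these. With the covariate 0 of the 35 were called, and without both end libraries DNAJC25 and DNAJC2 were called lower.

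**Figure D4:**
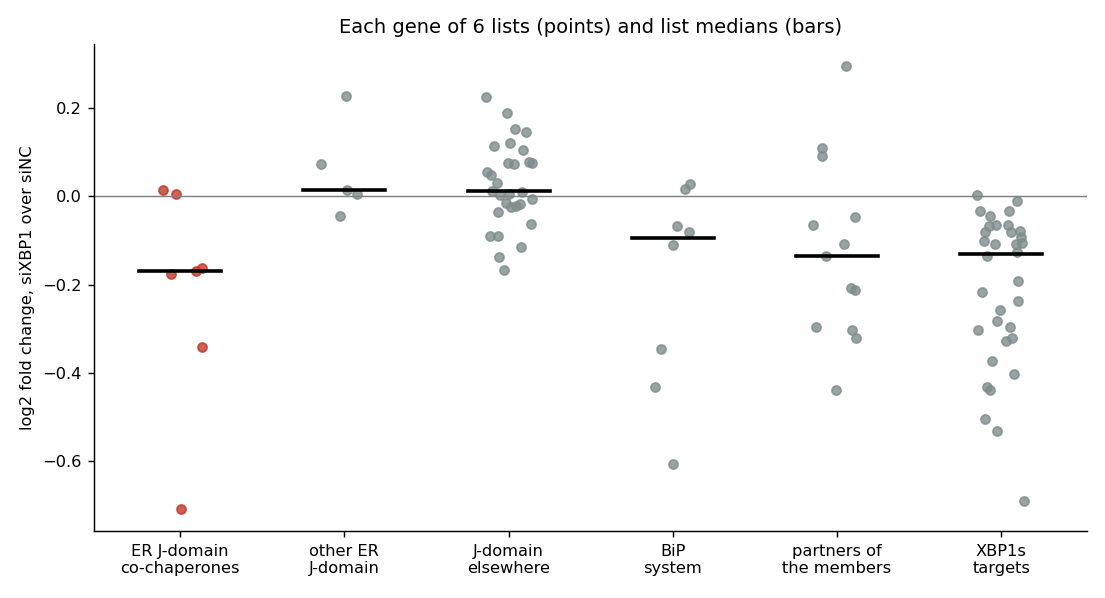
Log2 fold change of siXBP1 over siNC (vertical axis, edgeR with all 6 libraries) for each gene of 6 lists, with the list's median as a bar. The lowest ER J-domain co-chaperone is DNAJB9 at -0.71, the medians of the BiP system, partner and XBP1s target lists are -0.09, -0.13 and -0.13, and the J-domain genes outside the family lie between -0.17 and 0.23.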

How the data were processed

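The authors deposited whole-number read counts per gene for 6 RNA-seq libraries, not normalized, per the file headers. Libraries were stranded TruSeq, per the labels' protocols, and STAR 2.5.2a, hg38 and featureCounts 1.5.0 are listed in the submitters' processing notes. Which annotation and strand setting served is not given in the sources used here. Gene names and positions come from RefSeq (GRCh38.p14), which matched 18526 of 18555 IDs; the other 29 held 0.00349% of counts. Among counts of 1 to 40, 75.8% to 80.5% were even, as when both mates of a pair are counted, so fragments are probably fewer than counts. The labels do not say whether replicates were separate cultures, and the p-values therefore reflect only how far these libraries differ, which may be technical.

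Counts were filtered with filterByExpr, scaled by TMM and tested with edgeR 4.0.16 (R 4.3.3, quasi-likelihood test, two-sided, group as the only term), with Benjamini-Hochberg adjustment over all 14337 genes. SEs are the log2 fold change over the square root of F. CPM are counts over library totals. DESeq2 1.42.0 and limma-voom 3.58.1 were alternatives. The procedure was tested on simulated counts with less spread than these libraries and no shared component. That test therefore does not show how well differences are detected here. Exact permutation tests used all 20 assignments of 3 libraries against 3. Members, lists and alternatives were chosen with earlier results of these data known. Genes named are all members and, per list, the 3 with the smallest p in the edgeR fit with all libraries, where none was called. Other genes named were picked for their role or after their values were seen. Transcript lengths were not used here, so rankings and sums of CPM over genes, and ratios to HSPA5 or HSP90B1 counts, are not per length. The 2 ChIP-seq samples were not analysed here.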

Additional observations from a re-analysis of the deposited data

How the results depend on the processing

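Over 7 genes, the count called was 0 in the edgeR fit with all libraries, 0 with each other scaling or filter, limma-voom, halved counts, 1 library left out or a threshold of 0.01 or 0.10, 1 with DESeq2, 3 with the first component as covariate and 4 without both end libraries. With the replicate number as a block (replicate block) it was 0, with DNAJB9 at -0.71 (adjusted p = 0.121). The biological coefficient of variation in that fit was 12.7%. Same-numbered deviations correlated at 0.598, -0.361 and 0.428, and not every library correlated best with its own number. The labels do not say whether equal numbers share a culture. These correlations cannot settle it, because all libraries share the first component. Over all genes these counts were 1, 16 with DESeq2, 176 with the covariate, 702 without both end libraries, and 0 with upper-quartile factors, a threshold of 0.01, or without siNC replicate 2 or 3 or siXBP1 replicate 1 or 2. In 17 other fits DNAJB9, DNAJB11, DNAJC3, DNAJC10 and SEC63 were lower in every one, from -0.95 to -0.63, -0.19 to -0.12, -0.55 to -0.29, -0.46 to -0.06 and -0.41 to -0.06. DNAJC16 turned lower with upper-quartile factors (-0.0025), limma-voom (-0.00032), the covariate (-0.054) and without both end libraries (-0.18). With 1 library left out it ran from -0.13 to 0.091, and DNAJC1 from -0.058 to 0.078. The log2 ratio to HSPA5 then ran from -0.42 to -0.17 for DNAJC3, 0.047 to 0.11 for DNAJC1, -0.29 to 0.018 for DNAJC10, -0.082 to 0.21 for DNAJC16 and -0.30 to 0.036 for SEC63. The cause of these changes was not tested. In the 5 related lists (other ER J-domain genes, other J-domain genes, BiP system, partners, XBP1s targets), in that order, 0, 0, 3, 3 and 12 genes were called with the covariate and 1, 1, 3, 4 and 12 without both end libraries. DESeq2 called 2 of the targets, and the other fits called 0 in each list. Levels per length were not run. The lowest member count was 897, and the part of depth in the calls was not tested beyond halving the counts.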

Other observations

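Genes whose log2(CPM + 0.5) followed each co-chaperone most closely over the 6 libraries were taken by Pearson's r among the 10738 other genes that averaged 5 CPM or more, as a description that rests on 6 points that share the first component. DNAJB9 was followed by SLC33A1 (r = 0.988), the acetyl-CoA transporter of the ER membrane, TMED2 (0.981), a cargo receptor of the p24 family, and CPT1A (0.981), which admits fatty acids to mitochondria. DNAJB11 was followed by LRRC59 (0.991), an ER membrane protein, GMPPB (0.987), which makes GDP-mannose, and PPIB (0.987), a prolyl isomerase of the ER lumen. DNAJC3 was followed by SNORA18 (0.991), a small nucleolar RNA, LUC7L3 (0.99), a splicing factor, and SEC24D (0.987), a COPII coat subunit. DNAJC10 was followed by NUCB2 (0.994), a calcium-binding protein, RDH10 (0.993), a retinol dehydrogenase, and HSP90AA1 (0.991), a cytosolic HSP90.

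For SEC63 the closest genes were KDM4A (0.993), a histone demethylase, BBS7 (0.992), of the BBSome, and LAMB1 (0.99), a laminin chain. For DNAJC16 they were MARCHF5 (0.998), AHNAK (0.997) and UBR4 (0.996), and for DNAJC1 they were ELOC (0.995), TPT1 (0.994) and GLA (0.993). With r above 0.95 there were 17 genes for DNAJB9, 24 for DNAJB11 and 29 for DNAJC3, against 61 for SEC63, 75 for DNAJC1, 160 for DNAJC10 and 197 for DNAJC16. Within the family, r was 0.96 between DNAJB9 and DNAJC3, 0.95 between DNAJC10 and SEC63, 0.04 between DNAJB11 and SEC63 and -0.84 between DNAJC1 and DNAJC16.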
